A study of Homo sapiens with 30 samples.

Results

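Yijin-tang and Okbyeongpung-san, 2 traditional herbal formulas, were compared at their high dose in HT29, an established line of human colorectal adenocarcinoma cells. The comparison used 5 of the 30 libraries of the series, chosen by their titles: 3 of Yijin-tang and 2 of Okbyeongpung-san. Cells had been exposed for 24 h to 500 µg/mL of an ethanol extract of either formula. The same formulas at 100 and 20 µg/mL (3 and 2 libraries at each dose) and 3 libraries of cells given only the solvent DMSO, called vehicle here, served as reference. DMSO is labelled as 0.1% in the vehicle libraries but stands as 2% in the study's design text, so its strength is uncertain. By the design text, extracts that were more toxic were used at lower concentrations than stated, whereas the labels give 500 µg/mL for both formulas. Both Okbyeongpung-san libraries carry another set of library names than the Yijin-tang libraries, so formula and library set cannot be told apart. The vehicle libraries carry a set of names of their own, so a difference from vehicle cannot be told apart from library set either. One Okbyeongpung-san library (replicate 3) is titled batch D and the other 4 libraries batch E, and neither term is explained in the labels. Nothing in the labels says that replicates were separate cultures, and p-values then measure only the spread between these libraries, which may be technical.

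Yijin-tang is traditionally made from pinellia tuber and citrus peel with poria, ginger and licorice, and Okbyeongpung-san from astragalus, atractylodes and saposhnikovia roots. The labels do not list the ingredients of these extracts. The results below turn on NRF2 targets and on genes of lipid synthesis. NRF2 is a transcription factor that is held at low level by KEAP1 and is freed by electrophiles and oxidants. It then drives genes of glutathione and thioredoxin metabolism, NADPH supply, aldo-keto reductases, heme breakdown and iron storage. SREBP transcription factors are released from the endoplasmic reticulum when sterols are low and drive cholesterol and fatty acid synthesis, and INSIG1 is both their target and the protein that holds them back. LXR is a receptor for oxidised sterols that drives sterol export and, through SREBF1, fatty acid synthesis.

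NRF2 binds the antioxidant response element, whose core is written TGACNNNGC. This core was looked for on both strands of the 250 bases before the RefSeq gene starts (GRCh38.p14). It occurred in 10.9% of 35116 windows, and in at least one window of 13.2% of 27305 genes. Of the 26 genes in the NRF2 target list 19 had a window, and 5 of those held the core (26.3%): GCLM, TXNRD1, PGD, ME1 and EPHX1. A match is a description of the sequence and does not show binding. The windows of GCLM, a subunit of the enzyme that makes the glutathione precursor, at chr1:93909431-93909680 on the minus strand, and of TXNRD1, thioredoxin reductase, at chr12:104215529-104215778 on the plus strand, are shown because they hold the core in 2 forms, with the matching letters in capitals (5′ to 3′).
GCLM: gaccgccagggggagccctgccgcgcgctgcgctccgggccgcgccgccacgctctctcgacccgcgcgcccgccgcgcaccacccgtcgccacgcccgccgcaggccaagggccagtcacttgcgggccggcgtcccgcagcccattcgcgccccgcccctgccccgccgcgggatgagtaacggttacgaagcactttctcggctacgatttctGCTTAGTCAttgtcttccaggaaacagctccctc
TXNRD1: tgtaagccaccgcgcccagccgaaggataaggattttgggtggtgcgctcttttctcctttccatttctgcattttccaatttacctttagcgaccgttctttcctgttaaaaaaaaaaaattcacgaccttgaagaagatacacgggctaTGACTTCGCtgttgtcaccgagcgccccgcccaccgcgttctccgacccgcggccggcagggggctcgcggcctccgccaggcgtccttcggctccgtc
The match in GCLM lies on the opposite strand and begins 34 bases before the start. Another TXNRD1 window, at chr12:104286782-104287031 and not shown, also holds the core, there on the opposite strand. Neither gene passed the threshold between the formulas. GCLM was at 83.4, 81.7 and 82.8 counts per M (CPM) in the 3 Yijin-tang libraries and at 102 and 101 CPM in the 2 Okbyeongpung-san libraries, against 50.6 ± 7.80 CPM in vehicle (mean ± SD, n = 3). TXNRD1 was at 452, 432 and 429 CPM with Yijin-tang, at 492 and 492 CPM with Okbyeongpung-san and at 323 ± 15.02 CPM in vehicle. For both genes every Okbyeongpung-san library lay above every Yijin-tang library, which held for 14.4% of all genes tested. Both were named after their values were seen, and a link between the core and these levels was not tested.

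The 5 libraries held between 18.48 M and 28.86 M counts. Of the 14 markers of colorectal epithelium, 13 were at 1 CPM or more in all 5 libraries, and CDX1, a gut transcription factor, was at 0.46 to 1.03 CPM, reaching 1 CPM only in Okbyeongpung-san replicate 3. Of the other cell types, 8 of 9 fibroblast, 4 of 6 endothelial and all 5 erythroid markers were under 1 CPM in all 5 libraries. The same held for 4 of 6 neuronal or neuroendocrine markers. Of the others in that list, SYP reached 1.07 CPM, and ENO2, which also stands in the glycolysis list, was at 16.3 to 18.1 CPM. Summed fibroblast markers lay between 2.20 and 2.63 CPM with Yijin-tang and between 2.11 and 2.17 CPM with Okbyeongpung-san, and 3 of them were at 0 in all 5. Of the 10 immune markers, 7 were under 1 CPM and 5 at 0. Their sum (1599 to 1666 CPM with Yijin-tang, 1622 to 1665 CPM with Okbyeongpung-san) was nearly all LYZ, which epithelial cells can also make. The root mean square log2 difference between libraries was 0.145 to 0.156 within Yijin-tang, 0.184 between the Okbyeongpung-san libraries and 0.173 to 0.201 between formulas. By this measure the 2 Okbyeongpung-san libraries differed from each other about as much as the formulas did. By the median absolute log2 difference they were closer, at 0.065, against 0.067 to 0.085 between formulas and 0.062 to 0.069 within Yijin-tang. Chi-square units per degree of freedom were 2.94 for the Okbyeongpung-san pair, 4.225 to 8.96 between formulas and 3.48 to 8.27 within Yijin-tang. Yijin-tang replicate 2 had 12.36% of its counts in mitochondrially encoded genes, against 10.13% to 10.67% in the other 4, and without it 6 genes were higher and 14 lower between the formulas, all 20 among the 33 described next.

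At 500 µg/mL, 33 of 16157 genes tested differed between the formulas at an adjusted p below 0.05 (0.204%), in edgeR's quasi-likelihood test with Benjamini-Hochberg adjustment, which gave all adjusted p-values below. With Yijin-tang 12 were higher (0.0743%) and 21 lower (0.13%). None differed by 2-fold: the log2 differences lay between 0.26 and 0.91 in size. The lower genes included the aldo-keto reductase AKR1B10, heme oxygenase HMOX1 and the ubiquitin ligase TRIM31, and the higher genes included the sterol regulator INSIG1, the desaturase SCD and the sterol exporter ABCG1. In all 33 the libraries of the 2 formulas did not overlap, which held for 28% of all genes tested. Without adjustment, 1051 genes had a p below 0.05 (6.5%), 477 of them higher (2.95%) and 574 lower (3.55%) with Yijin-tang. Over all genes the median log2 difference was 0.001. Log2 differences below are Yijin-tang minus Okbyeongpung-san with their SE, and means are given with the SD over 3 and 2 libraries.

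**Figure D1:**
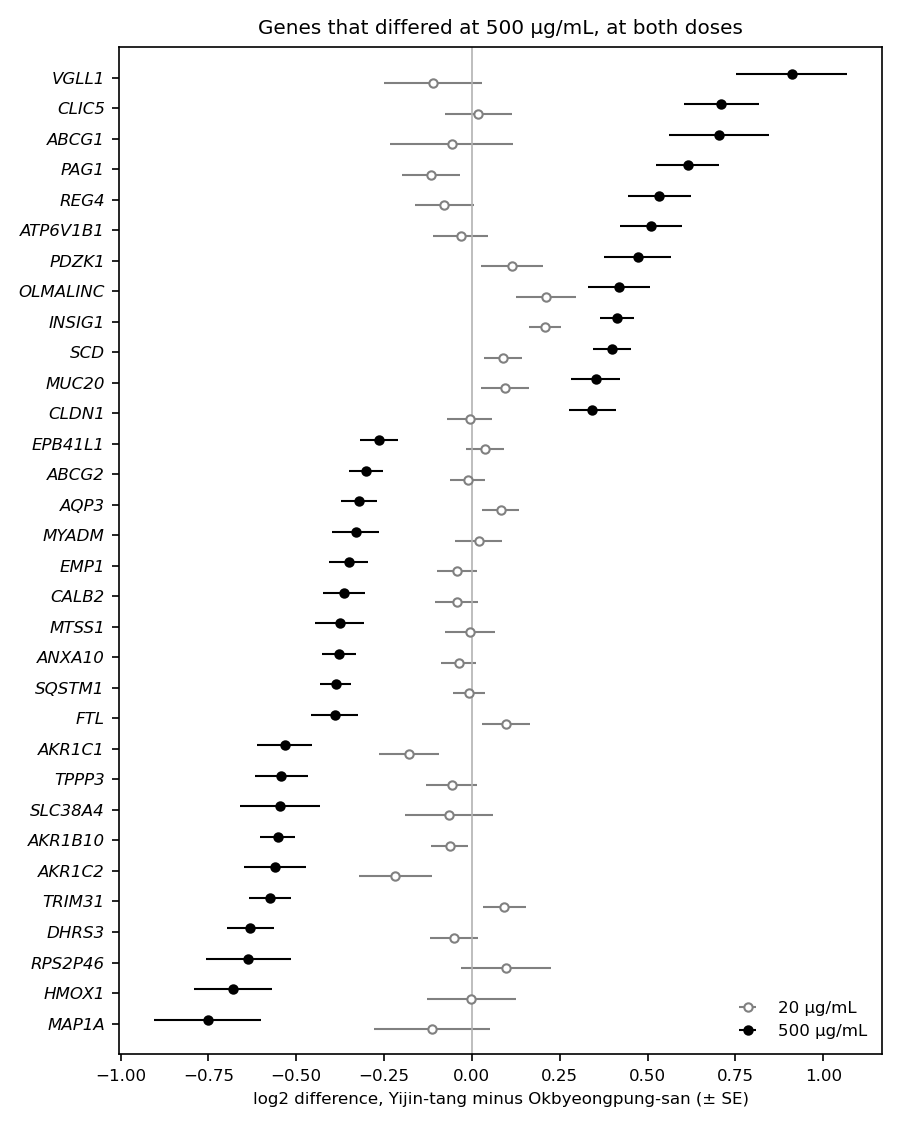
Log2 difference between Yijin-tang and Okbyeongpung-san (x axis, with SE bars) for 32 of the 33 genes that passed the threshold at 500 µg/mL (filled), and for the same genes at 20 µg/mL (open). At 500 µg/mL the differences lie between -0.75 (MAP1A) and 0.91 (VGLL1), and at 20 µg/mL 29 of the 32 are under 0.2 in size; the genes were chosen on the filled points.

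All 26 genes of the NRF2 target list were tested, and all 26 were lower with Yijin-tang than with Okbyeongpung-san. Of these, 6 were past the threshold and 19 had an unadjusted p below 0.05, against 0.13% and 3.55% of all genes in this direction. The list's median log2 difference was -0.23. In 24 of the 26 the libraries of the formulas did not overlap, against 14.4% of all genes in this direction and 13.6% in the other. The gene lists were chosen with earlier results of these data known, so these counts carry no test. Among those that passed were AKR1B10, AKR1C1, AKR1C2, HMOX1 and FTL. AKR1B10, an aldo-keto reductase that reduces aldehydes and retinal (chr7:134527592-134541408, plus strand), was at 151, 137 and 144 CPM in the Yijin-tang libraries and at 212 and 211 CPM in the Okbyeongpung-san libraries. The groups were far apart relative to their spread (144 ± 7.06 against 211 ± 0.341 CPM), and both were above vehicle (105 ± 3.36 CPM). The log2 difference was -0.55 ± 0.050 (adjusted p = 3.02e-06), and -0.56 within batch E. AKR1C1 and AKR1C2, neighbouring genes for steroid and carbonyl reductases that lie 4.1 kb apart on chromosome 10, showed the same order. AKR1C1 was at 22.2, 19.4 and 20.2 CPM with Yijin-tang and 29.8 and 30.1 CPM with Okbyeongpung-san (log2 difference -0.53 ± 0.079, adjusted p = 0.00134). AKR1C2 was at 22.7, 19.8 and 24.4 CPM and 35.03 and 30.8 CPM (log2 difference -0.56 ± 0.089, adjusted p = 0.00295). These paralogs are close in sequence, so the division of reads between them is uncertain. AKR1C3, the third member of the cluster, was at 70.3 ± 8.799 against 90.2 ± 0.993 CPM and did not pass (adjusted p = 0.187). AKR1C2 did not pass without Okbyeongpung-san replicate 2 (adjusted p = 0.23).

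The classical NRF2 target NQO1, a quinone reductase, was at 608, 572 and 600.2 CPM with Yijin-tang and 670.2 and 698 CPM with Okbyeongpung-san, without overlap, but did not pass (log2 difference -0.20 ± 0.045, adjusted p = 0.0737). Vehicle was at 481 ± 10.9 CPM. GCLC, the catalytic partner of GCLM, was at 109 ± 2.79 against 128 ± 4.97 CPM, and the cystine transporter SLC7A11 was at 209 ± 6.47 against 273 ± 13.6 CPM (adjusted p = 0.0903 and 0.496). The sulfiredoxin SRXN1 (-0.24 ± 0.056), the iron-binding PIR (-0.39 ± 0.087) and TXNRD1 (-0.17 ± 0.056) had log2 differences of the same sign and did not pass. Leaving out Okbyeongpung-san replicate 2 left 2 of the 26 past the threshold and leaving out Yijin-tang replicate 2 left 4, against 10 in DESeq2, 12 without a filter on low counts, 9 with all 30 libraries in the fit and 17 with only the libraries compared. All 26 stayed lower in each. Over the 15 alternative settings and left-out libraries the list's median lay between -0.24 and -0.22.

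Heme and iron genes that differed were HMOX1 and FTL, 2 of the 15 in the heme and iron list, and both also belong to the NRF2 list. Over all genes 0.13% passed in this direction. HMOX1, heme oxygenase, which breaks down heme, was at 12.3, 11.8 and 11.6 CPM with Yijin-tang and 20.2 and 17.8 CPM with Okbyeongpung-san. The Yijin-tang mean of 11.9 ± 0.379 CPM was near that of vehicle (11.04 ± 0.775 CPM), and the log2 difference between formulas was -0.68 ± 0.11 (adjusted p = 0.00336). FTL, the ferritin light chain, was at 2017, 1945 and 1957 CPM and 2677 and 2497 CPM (log2 difference -0.39 ± 0.067, adjusted p = 0.00656). The ferritin heavy chain FTH1 was at 4279 ± 47.4 against 4802 ± 8.18 CPM and did not pass (adjusted p = 0.743). BLVRB, a biliverdin reductase, was close to the threshold (-0.34 ± 0.073, adjusted p = 0.05197), and FECH, which makes heme, had a log2 difference of -0.27 ± 0.082 (adjusted p = 0.343). TFRC, the transferrin receptor, was at 674 ± 14.3 against 751 ± 0.617 CPM (adjusted p = 0.604). Over the list 10 of 15 genes were lower and the median log2 difference was -0.044; it was -0.114 without Okbyeongpung-san replicate 2 and -0.112 without replicate 3 and in batch E alone. Without Okbyeongpung-san replicate 2 neither HMOX1 nor FTL passed (adjusted p = 0.232 for both), and without Yijin-tang replicate 2 FTL did not (adjusted p = 0.0567).

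SQSTM1, the autophagy receptor p62, which binds KEAP1 (chr5:179806398-179838078, plus strand), was at 325, 315 and 322 CPM with Yijin-tang and 429 and 410.2 CPM with Okbyeongpung-san. The vehicle mean of 353 ± 12.6 CPM lay between them, and the log2 difference was -0.39 ± 0.044 (adjusted p = 5.31e-05). It was the only one of 26 lysosome and autophagy genes that passed, against 0.13% of all genes in this direction. ABCG2, an exporter of drugs and heme precursors that was listed among the targets of the aryl hydrocarbon receptor, was at 90.9, 84.6 and 88.5 CPM with Yijin-tang and 109 and 108 CPM with Okbyeongpung-san, and at 63.1 ± 1.15 CPM in vehicle. Its log2 difference was -0.30 ± 0.048 (adjusted p = 0.00314; 0.0794 without Okbyeongpung-san replicate 2).

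Of the remaining lower genes, TRIM31, a gut-enriched ubiquitin ligase (chr6:30102897-30113106, minus strand), was at 139.8, 137 and 135 CPM with Yijin-tang and 205 and 203 CPM with Okbyeongpung-san. Vehicle, at 135 ± 11.9 CPM, was near Yijin-tang. The log2 difference was -0.58 ± 0.060 (adjusted p = 1.87e-05). DHRS3, which turns retinal back to retinol and is a retinoic acid target (chr1:12567910-12617731, minus strand), was at 25.98, 26.1 and 28.5 CPM and 42.98 and 40.05 CPM, on either side of vehicle at 30.03 ± 2.08 CPM (log2 difference -0.63 ± 0.067, adjusted p = 1.87e-05). TPPP3, a tubulin-binding protein, was at 20.2, 19.4 and 19.9 CPM with Yijin-tang and 29.5 and 28.3 CPM with Okbyeongpung-san. Vehicle, at 30.8 ± 1.64 CPM, was near Okbyeongpung-san, and the log2 difference between formulas was -0.54 ± 0.075 (adjusted p = 6.19e-04). MAP1A, a microtubule-associated protein, had the largest lower difference, -0.75 ± 0.15 (adjusted p = 0.0353), but its Okbyeongpung-san libraries were apart from each other, at 7.91 and 5.78 CPM, above Yijin-tang at 4.404, 4.16 and 3.81 CPM. Without Okbyeongpung-san replicate 2 it was -0.49 (adjusted p = 0.757), and the call was also lost without any 1 Yijin-tang library, with batch as a term and in DESeq2. SLC38A4, an amino acid transporter, was at 4.96, 4.37 and 4.92 CPM and 6.79 and 7.19 CPM (adjusted p = 0.0433). That call was lost in 9 of 15 alternative settings, with adjusted p-values of 0.0638 to 0.544: without any 1 of the 5 libraries, in batch E alone, with batch as a term, with the replicate block and in DESeq2. RPS2P46 is a pseudogene of a ribosomal protein whose reads can be shared with near-identical copies, so its value (-0.64 ± 0.12) is uncertain, and the call was lost in 6 of the 15 settings. TPPP3 did not pass with all 30 libraries in the fit (adjusted p = 0.304).

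A further 7 lower genes fell outside the rule for named genes and are listed for completeness, chosen after their values were seen: ANXA10, EMP1, AQP3, CALB2, MTSS1, MYADM and EPB41L1. Their log2 differences lay between -0.38 (ANXA10, an annexin) and -0.26 (EPB41L1, a membrane skeleton protein). Of these, ANXA10 was at 60.3, 60.2 and 60.9 CPM with Yijin-tang and 78.4 and 78.8 CPM with Okbyeongpung-san, above vehicle at 47.2 ± 1.13 CPM. AQP3, a water and glycerol channel of the colonic epithelium, was at 112, 108 and 106 CPM and 139 and 132 CPM, with vehicle at 104 ± 6.51 CPM. Of the 15 alternative settings, MYADM lost its call in 7, EPB41L1 in 6 and MTSS1 in 3. EMP1, AQP3 and CALB2 lost theirs in 1 of the 15, without Okbyeongpung-san replicate 2, and ANXA10 kept its call in all 15.

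Genes of lipid synthesis lay on the other side. Of 25 cholesterol synthesis and SREBP2 target genes, 24 were higher with Yijin-tang than with Okbyeongpung-san, 1 past the threshold and 15 with an unadjusted p below 0.05, with a median log2 difference of 0.13. INSIG1 (chr7:155297776-155310235, plus strand) was at 111, 112 and 118 CPM with Yijin-tang and 83.5 and 87.8 CPM with Okbyeongpung-san, all 5 below the vehicle mean of 125 ± 4.62 CPM. The log2 difference was 0.41 ± 0.048 (adjusted p = 5.57e-05). None of the enzymes passed: FDPS, which makes farnesyl diphosphate, was at 128, 126 and 128 CPM with Yijin-tang and 110 and 112 CPM with Okbyeongpung-san (adjusted p = 0.0887). LSS, lanosterol synthase (0.23 ± 0.058), MSMO1, a sterol methyl oxidase (0.24 ± 0.064), and HMGCS1, at the head of the pathway (0.13 ± 0.060), had adjusted p-values of 0.1703, 0.195 and 0.749.

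SCD, which makes monounsaturated fatty acids (chr10:100347124-100364834, plus strand), was the 1 gene of 12 in the fatty acid synthesis list that passed, and 11 of the 12 were higher with Yijin-tang (median 0.14). Over all genes 0.0743% passed in this direction. SCD was at 1473, 1507 and 1503 CPM with Yijin-tang and 1114 and 1154 CPM with Okbyeongpung-san. Vehicle, at 1234 ± 60.5 CPM, lay between the groups, and the log2 difference was 0.40 ± 0.054 (adjusted p = 5.50e-04). OLMALINC, a long noncoding RNA that begins 8.7 kb beyond the end of SCD on the same strand, was at 19.1, 21.2 and 18.8 CPM and 14.9 and 14.4 CPM (0.42 ± 0.087, adjusted p = 0.0433). That call was lost in 8 of 15 settings, with adjusted p-values of 0.0577 to 0.672: without any 1 of the 5 libraries, in batch E alone, with batch as a term and with the replicate block. The fatty acid synthase FASN was at 892 ± 19.7 against 794 ± 60.4 CPM and did not pass (adjusted p = 0.782). ABCG1, which exports sterols from cells and is a defining LXR target, was at 8.25, 7.65 and 6.88 CPM with Yijin-tang and 4.47 and 4.92 CPM with Okbyeongpung-san. Both groups lay far above vehicle (1.85 ± 0.349 CPM), Yijin-tang more so, with a log2 difference of 0.70 ± 0.14 (adjusted p = 0.0343). That call was lost in 8 of 15 settings, with adjusted p-values of 0.0577 to 0.48: in batch E alone (log2 difference 0.76), with batch as a term, with the replicate block, in DESeq2, and without Yijin-tang replicate 1 or 2 or either Okbyeongpung-san library. Of the 8 LXR targets 7 were higher, with a median of 0.154 that was 0.267 without Okbyeongpung-san replicate 2 and 0.095, with 6 of 8 higher, without replicate 3. In the list, the other exporter, ABCA1 (0.27 ± 0.12, adjusted p = 0.738), and SREBF1 (0.31 ± 0.079, adjusted p = 0.195) did not pass.

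The aryl hydrocarbon receptor is a sensor of planar aromatic compounds, and CYP1A1 and CYP1B1 are its best-known targets. CYP1A1 was at 9.47, 6.501 and 7.27 CPM with Yijin-tang, 4.12 and 2.81 CPM with Okbyeongpung-san and 0.602 ± 0.0889 CPM in vehicle. Its log2 difference between formulas, 1.14 ± 0.28, was larger than that of any of the 33 genes but did not pass (adjusted p = 0.178). CYP1B1 was at 114, 97.3 and 106 CPM and 87.4 and 88.3 CPM, with vehicle at 45.6 ± 2.63 CPM (adjusted p = 0.834). ALDH3A1, an aldehyde dehydrogenase, ran the other way, at 40.2 ± 4.11 against 49.1 ± 3.88 CPM (adjusted p = 0.307). Of the 11 genes of the list that were tested 7 were higher and 4 lower with Yijin-tang. Only ABCG2, which was lower, passed, against 0.13% of all genes in this direction.

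Among the other higher genes, PAG1, a membrane adaptor that recruits the kinase CSK (chr8:80967810-81112068, minus strand), was at 15.3, 14.8 and 14.8 CPM with Yijin-tang and 9.95 and 9.62 CPM with Okbyeongpung-san, on either side of vehicle (11.4 ± 0.884 CPM). The log2 difference was 0.61 ± 0.089 (adjusted p = 0.00103). VGLL1, a cofactor of TEAD transcription factors, had the largest difference of the 33, 0.91 ± 0.16 (adjusted p = 0.00702), at a low level: 3.88, 4.73 and 4.08 CPM with Yijin-tang and 2.32 and 2.11 CPM with Okbyeongpung-san. It did not pass in batch E alone or without Yijin-tang replicate 2 or either Okbyeongpung-san library (adjusted p = 0.0503 to 0.174). CLIC5, a chloride channel protein of microvilli, was at 11.9, 11.9 and 12.3 CPM and 8.16 and 6.32 CPM (0.71 ± 0.11, adjusted p = 0.00171). REG4, a lectin of secretory gut cells, was at 18.4, 19.4 and 19.1 CPM and 12.7 and 13.6 CPM, all below vehicle at 24.1 ± 2.09 CPM (0.53 ± 0.090, adjusted p = 0.00483). It was the 1 gene of 18 goblet and secretory cell genes that passed, against 0.0743% of all genes in this direction. Of the 18, 14 were higher. The list's median of 0.111 was 0.218 without Okbyeongpung-san replicate 2, 0.066 without replicate 3 and 0.062 without Yijin-tang replicate 3. REG4 did not pass without Okbyeongpung-san replicate 2 (adjusted p = 0.23), nor CLIC5 without replicate 3 (adjusted p = 0.0892). The goblet mucin MUC2 was at 14.6 ± 1.54 against 10.8 ± 1.84 CPM (adjusted p = 0.913).

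The higher genes also held ATP6V1B1, PDZK1, CLDN1 and MUC20. ATP6V1B1, a subunit of the proton pump, was at 17.9, 17.9 and 19.7 CPM with Yijin-tang and 12.98 and 13.1 CPM with Okbyeongpung-san, with vehicle higher than both at 27.2 ± 2.75 CPM. PDZK1, a scaffold of brush border transporters, was at 10.8, 11.5 and 11.6 CPM and 8.05 and 8.22 CPM. CLDN1, a tight junction protein, was at 42.6, 46.1 and 42.3 CPM and 34.4 and 34.3 CPM. MUC20, a membrane mucin, was at 56.1, 56.2 and 56.1 CPM and 47.03 and 40.6 CPM, the Okbyeongpung-san libraries being further apart than those of Yijin-tang. Log2 differences were 0.51, 0.47, 0.34 and 0.35 in that order (adjusted p = 0.00675, 0.0364, 0.0223 and 0.0323). Within batch E none of these 4 passed, and their differences there were 0.51, 0.48, 0.34 and 0.25. Over the 15 alternative settings, left-out libraries included, ATP6V1B1 lost its call in 4, PDZK1 in 8, CLDN1 in 6 and MUC20 in 6.

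The 20 µg/mL libraries show how far the formulas differed at the lowest dose, where formula and library set again cannot be told apart. None of the 16157 genes differed there at an adjusted p below 0.05 in edgeR, 461 had an unadjusted p below 0.05 (2.85%), and DESeq2 called 1. Of the 33 genes, 25 differed by under 0.1 on the log2 scale at 20 µg/mL, and the median size of their differences was 0.063 at 20, 0.103 at 100 and 0.471 at 500 µg/mL. INSIG1 and OLMALINC, with 0.21 ± 0.047 and 0.21 ± 0.085 at 20 µg/mL, and AKR1C2, with -0.22 ± 0.10, were the 3 with differences over 0.2. From 20 to 500 µg/mL the change with Okbyeongpung-san was larger in size than that with Yijin-tang for 31 of the 33. Among the 21 lower genes the median log2 change was 0.51 with Okbyeongpung-san and 0.11 with Yijin-tang, and among the 12 higher genes -0.61 and -0.049. Since the 33 were chosen on the 500 µg/mL libraries, these counts carry no test.

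**Figure D2:**
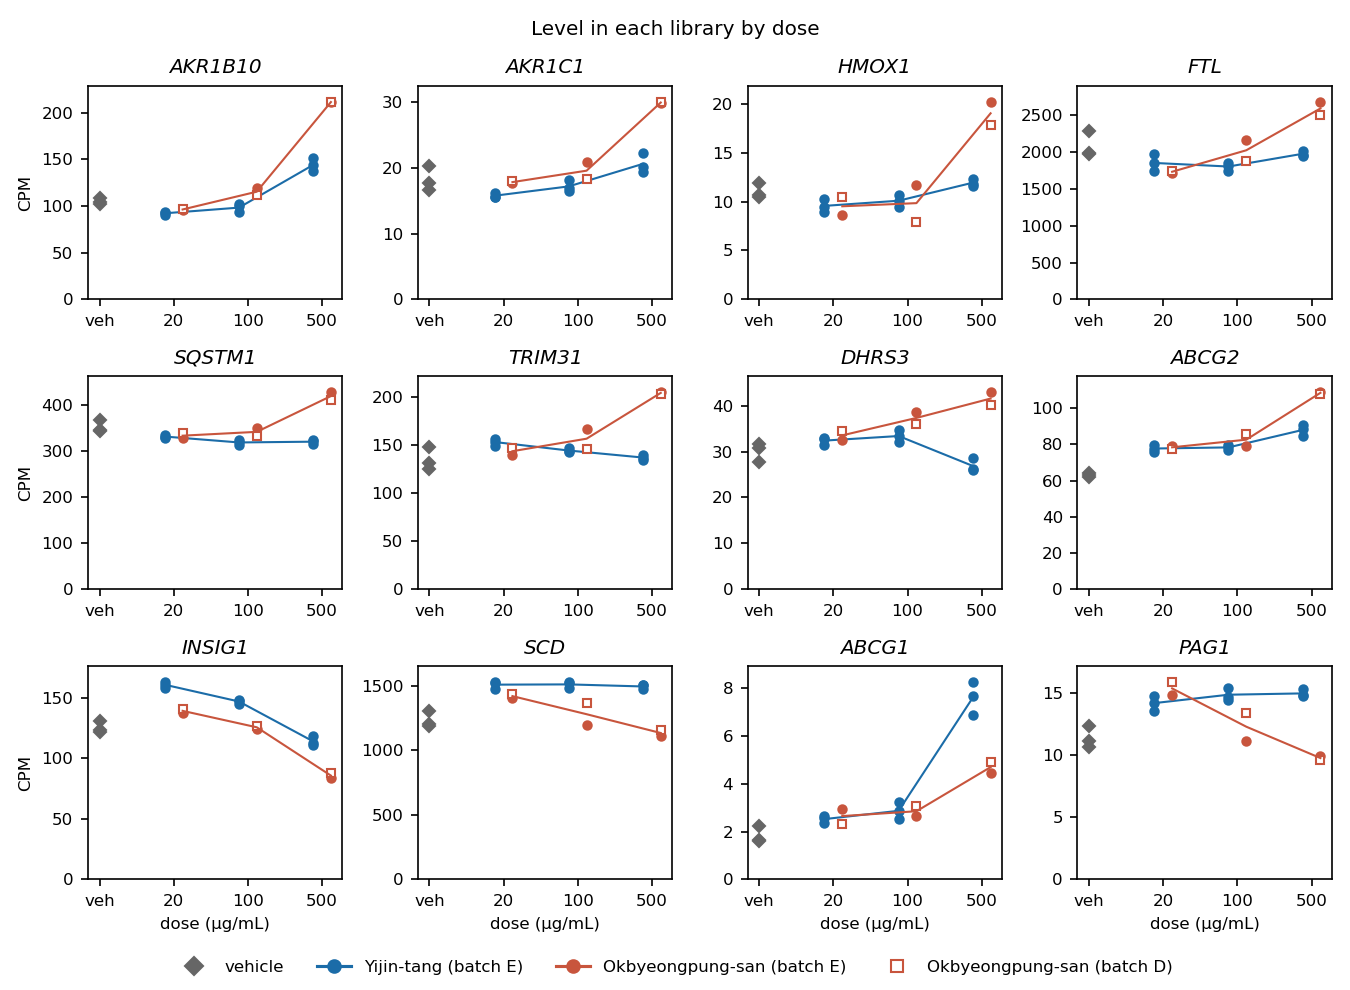
Level (CPM, y axis from 0) in each library of vehicle and of both formulas at 20, 100 and 500 µg/mL for 12 genes; lines join the means, and open squares are the Okbyeongpung-san libraries titled batch D. At 500 µg/mL the AKR1B10 means are 144 CPM with Yijin-tang and 211 CPM with Okbyeongpung-san, and at 20 µg/mL they are 92.2 and 96.3 CPM.

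The test of the dose change itself, the change from 20 to 500 µg/mL with Yijin-tang minus that with Okbyeongpung-san, in which a constant difference between library sets drops out, passed for 5 genes (0.0309%), 4 lower (0.0248%) and 1 higher (0.00619%), all among the 33. TRIM31 went from 153 ± 3.596 to 137 ± 2.54 CPM with Yijin-tang and from 144 ± 5.06 to 204 ± 1.51 CPM with Okbyeongpung-san. The difference of these changes was -0.67 ± 0.086 (adjusted p = 0.00147). AKR1B10 went from 92.2 ± 1.92 to 144 ± 7.06 CPM and from 96.3 ± 1.00 to 211 ± 0.341 CPM, up with both but less with Yijin-tang (-0.49 ± 0.073, adjusted p = 0.00747). DHRS3 (-0.58 ± 0.096), SQSTM1 (-0.38 ± 0.063) and PAG1 (0.73 ± 0.12) had adjusted p-values of 0.0161, 0.0161 and 0.0161. The DHRS3 means went in opposite directions, from 32.4 ± 0.758 to 26.9 ± 1.42 CPM with Yijin-tang and from 33.5 ± 1.298 to 41.5 ± 2.07 CPM with Okbyeongpung-san. SCD (0.31 ± 0.076, adjusted p = 0.414) and INSIG1 (0.21 ± 0.067) did not pass. How far these calls rested on the full set of libraries differed between genes. Of 20 alternative settings, left-out libraries included, TRIM31 lost its call in 1 and AKR1B10 in 5. DHRS3, PAG1 and SQSTM1 lost theirs in 9, 10 and 11 of the 20. Over the NRF2 list the median difference of dose changes was -0.22, with medians of 0.27 for Yijin-tang and 0.46 for Okbyeongpung-san. Over the cholesterol and SREBP2 list it was 0.052, and the medians were -0.24 and -0.30 in the same order, down with both formulas. For the fatty acid synthesis list it was 0.13, with medians of -0.011 and -0.14.

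Across the 36 gene lists, the NRF2 targets had the lowest median (-0.23), also in each of the 15 alternative settings. The 29 proteasome subunits were all lower with Yijin-tang, with a median of -0.096. None passed the threshold and 9 had an unadjusted p below 0.05, against 3.55% of all genes in this direction. PSMD2, a regulatory subunit, was at 278, 269 and 268 CPM with Yijin-tang and 302 and 300 CPM with Okbyeongpung-san (adjusted p = 0.346). Under batch E alone 27 of the 29 were lower, and with the replicate block 25. Mitosis genes were higher in 26 of 30 (median 0.061), with none past the threshold, and the proliferation marker MKI67 was at 1088 ± 66.6 against 1040 ± 11.7 CPM (adjusted p = 0.977). The 13 mitochondrially encoded genes were higher in 13 of 13 at 500 µg/mL (median 0.10) and had a median of 0.21 at 20 µg/mL; none passed and none was free of overlap. Without Yijin-tang replicate 2, the library with the highest mitochondrial share, 5 of the 13 were higher and the median was -0.038, and without replicate 3 it was 0.177. The fixed markers CDKN1A, a p53 target (0.087 ± 0.10), AXIN2, a WNT target (0.093 ± 0.057), DDIT3, a stress factor (0.059 ± 0.14), and CXCL8, a chemokine (-0.049 ± 0.12), did not pass. All list directions are read beside a share of 8142 of 16157 genes that were higher with Yijin-tang. The genes of a list share their libraries, so these counts are not independent observations.

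**Figure D3:**
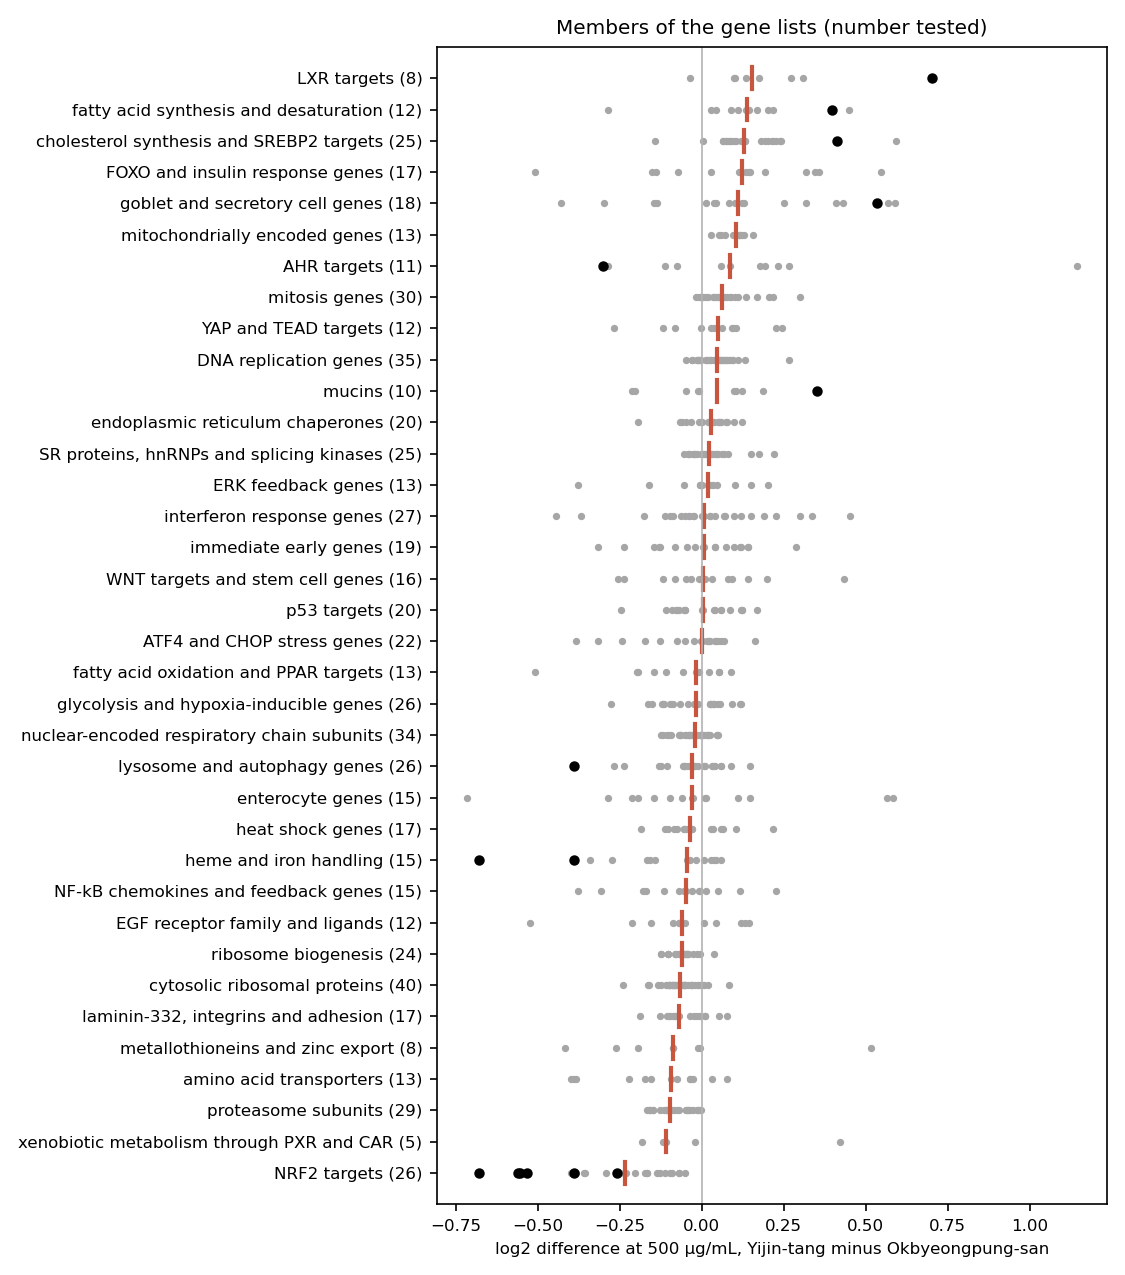
Log2 difference at 500 µg/mL (x axis) for each tested member of the 36 gene lists, ordered by median (bar); larger black points passed the threshold. All 26 NRF2 targets lie below 0 and 24 of 25 cholesterol synthesis and SREBP2 targets above it, with medians of -0.23 and 0.13.

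Each Okbyeongpung-san library was also set against the Yijin-tang mean by itself, since 1 of the 2 is titled batch D. These differences were taken on log2 CPM with a small constant added, not from edgeR, which makes them smaller for genes at a low level. For VGLL1 they were 0.742 and 0.855, against 0.91 from edgeR. All 33 genes had the same direction against both libraries. This had to be so, since in all 33 the libraries of the formulas did not overlap, and it is no check of the batches. The difference was nearly the same for AKR1B10 (-0.56 against the batch E library and -0.55 against the batch D library). It was less alike for MAP1A (-0.87 and -0.44), RPS2P46 (-0.43 and -0.80) and MUC20 (0.25 and 0.46). Within batch E, with 3 libraries against 1, 22 genes passed, and all 22 were among the 33. The lone Okbyeongpung-san library is there assumed to vary like the other groups. Batch D holds no Yijin-tang library and gives no value of its own. Across all 15 alternative settings, 9 genes passed in every one: AKR1B10, AKR1C1, ANXA10, DHRS3, INSIG1, PAG1, SCD, SQSTM1 and TRIM31.

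**Figure D4:**
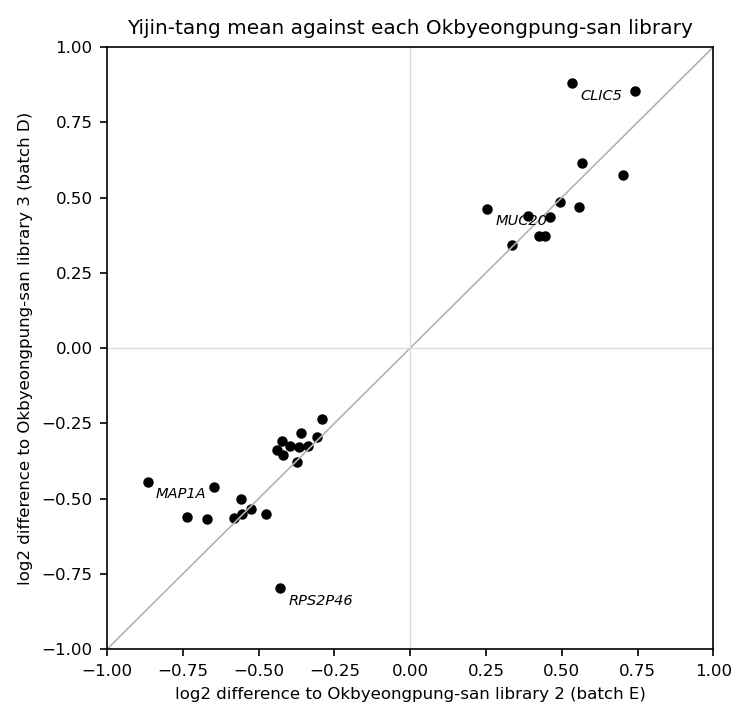
Log2 difference, on CPM with a small constant added, between the mean of the 3 Yijin-tang libraries and Okbyeongpung-san library 2 (batch E, x axis) or library 3 (batch D, y axis) for 32 of the 33 genes. The line marks equal values. Every point lies in the lower left or upper right quadrant, as it must where the libraries of the formulas do not overlap. MAP1A, CLIC5, RPS2P46 and MUC20, which are labelled, lie off the line.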

How the data were processed

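Messenger RNA of HT29 cells was sequenced with a directional kit, per the labels' protocols, and the submitters' processing notes name GRCh38, RSEM 1.3.3, STAR 2.7.3a, Trim Galore 0.6.5 and FastQC 0.11.9. For the annotation release the sources used here give nothing. The deposited table gives the authors' RSEM expected counts per gene, not normalised, for 60675 gene identifiers and 30 named columns. Another 30 columns have no name and no values. Between 9.62% and 10.45% of the values of the 5 libraries were not whole, and counts were rounded. Symbols were found for 56558 identifiers, and coordinates were taken from GENCODE release 29 for 57055.

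The analysis used edgeR 4.0.16 (R 4.3.3): filterByExpr, TMM factors (0.944 to 1.02), and robust quasi-likelihood F-tests over 18 libraries in 7 groups (vehicle and 3 doses of both formulas), 16157 genes, with Benjamini-Hochberg adjustment and a threshold of 0.05. The spread was shared across groups because Okbyeongpung-san has 2 libraries a dose. The biological coefficient of variation was 5.29%. CPM are scaled by TMM, and SE were derived from the F statistic. Comparisons were made at 500 µg/mL, at 20 µg/mL and for the change between these doses.

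Members and gene lists were chosen with earlier results of these data known. Genes named in the text are the 12 largest differences in each direction past the threshold with a mean of at least 2 CPM and no overlap of libraries, the largest 5 in each direction for the dose change, up to 4 members of each list with the smallest adjusted p, and 12 fixed markers. GCLM, TXNRD1, GCLC, SRXN1, PIR, AKR1C3, FTH1 and TFRC were added as list members after their values were seen. Of the genes that passed, 1 is not reported here. Every pair of libraries differed beyond sampling noise, with 2.94 to 8.96 chi-square units per degree of freedom. In simulated data with 50 genes changed per fold, all at 2 CPM or more, 62% were recovered at 1.25-fold, 82% at 1.5-fold and 98% at 2-fold. There were 8 false among 179 calls over 15946 genes. The simulated libraries varied independently around the same mean for each gene, apart from depth and the set changes. They held no batch or library-set difference, and recovery and false calls under such differences were not tested. Alternatives were the libraries in the fit, batch, a replicate block, RLE size factors, DESeq2 1.42.0, filters on low counts and left-out libraries. Promoter windows came from RefSeq (GRCh38.p14).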

Additional observations from a re-analysis of the deposited data

Results flagged for a closer look

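For 5 genes the change from 20 to 500 µg/mL differed between the formulas in the test of that difference (edgeR's quasi-likelihood test, Yijin-tang minus Okbyeongpung-san, log2). Differences were -0.67 for TRIM31, -0.49 for AKR1B10, -0.58 for DHRS3, -0.38 for SQSTM1 and 0.73 for PAG1. All 20 alternative settings kept these directions. TRIM31 lost its call in 1 of the 20, without Okbyeongpung-san low replicate 2, and AKR1B10 in 5 of the 20. DHRS3, PAG1 and SQSTM1 lost theirs in 9, 10 and 11 of the 20. Formula and library set cannot be told apart for the levels, but a constant difference between sets drops out of this contrast.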

How the results depend on the processing

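Counts at 500 µg/mL are given as genes higher and lower with Yijin-tang. Fitting only the libraries compared gave 64 and 96, all 30 libraries 22 and 33, no filter 34 and 55, DESeq2 22 and 32, and batch E alone 5 and 17. Leaving out 1 library gave 4 to 8 and 14 to 17. Of the 33 genes, 24 lost their call in at least one of the 15 settings and none changed direction. Without Okbyeongpung-san high replicate 2, 20 genes passed, 13 of them among the 33. At 20 µg/mL the counts were 6 and 2 with only the libraries compared, 3 and 0 without a filter, 1 and 0 in DESeq2 and 0 in all others run, left-out libraries included (0 to 0). The dose change gave 13 and 24 with only the libraries compared, 2 and 7 with all 30, 0 and 1 in batch E, 9 and 13 without a filter, 2 and 8 in DESeq2, and 0 to 1 and 0 to 3 with a library left out. With a library left out, 2 genes that did not pass crossed 0: CXCL8 lay between -0.14 and 0.042 (0.015 without Okbyeongpung-san replicate 2) and DDIT3 between -0.031 and 0.11. Leaving out Okbyeongpung-san medium replicate 2, chosen after seeing the data, gave 15 and 31. With the replicate block, 14 and 22 genes passed, 30 of them among the 33. Only 2 replicate numbers are shared, and the deviations of their libraries from the group means had correlations of -0.091 and -0.0078. With 2 Okbyeongpung-san libraries these deviations are exact opposites, so the correlations cannot decide whether the numbers pair the libraries. The main fit did not take them as pairs. Okbyeongpung-san has 2 libraries a dose, which limits what can be called.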

Other observations

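Of 17 FOXO and insulin response genes, 13 were higher with Yijin-tang, with a median log2 difference of 0.12 at 500 µg/mL and none past the threshold. With an unadjusted p below 0.05 there were 3 higher and 3 lower genes, against 2.95% and 3.55% of all genes. CCNG2, a cyclin induced by FOXO factors, was at 27.3, 28.8 and 28.4 CPM with Yijin-tang and 23.6 and 21.4 CPM with Okbyeongpung-san, just outside the threshold (0.32 ± 0.067, adjusted p = 0.0507). PDK4, which restrains pyruvate oxidation and belongs to the same list, went the other way, at 5.45, 6.397 and 6.04 CPM and 8.97 and 7.78 CPM (-0.51 ± 0.12, adjusted p = 0.0799). Ribosome biogenesis genes were lower in 23 of 24 (median -0.061) and cytosolic ribosomal proteins in 36 of 40 (median -0.065, and -0.043 without Yijin-tang replicate 2), none past the threshold. CREB3L1, a membrane-bound transcription factor listed with the secretory genes, was at 137, 151 and 145 CPM with Yijin-tang and 117 and 114 CPM with Okbyeongpung-san, and vehicle was at 193 ± 22.4 CPM (adjusted p = 0.144). DNA replication genes were higher in 26 of 35 (median 0.047, and 0.031 without Yijin-tang replicate 3). Of 27 interferon response genes 15 were higher and 12 lower (median 0.0070), near the share over all genes (8142 of 16157 higher).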
